A study of Mus musculus with 14 samples.

Results

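Gpnmb and Atp6v0d2 are known from macrophages that take up lipid and cell debris, and this account follows them in sorted liver sinusoidal endothelial cells (LSECs) together with 8 further genes of the lipid-associated and injury-associated macrophage programme, Trem2, Spp1, Lgals3, Cd9, Mmp12, Itgax, Dcstamp and Ms4a7. The 10 genes are the rows of the deposited count table whose Ensembl identifiers carry these symbols in the GENCODE vM21 annotation, 10 of 54524 genes, and all 10 passed the filter on low counts that left 26626 genes for testing. Gpnmb and Atp6v0d2 were chosen by their large measured difference between day 7 and healthy LSECs. Their values against healthy LSECs are therefore given as a description without a test, and the question put to the data is whether the other 8 genes were higher together with them.

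The samples are RNA from CD32+ cells of male Balb/c mice, sorted as negative for F4/80, for UV autofluorescence and for propidium iodide, and in the study's methods also for the leukocyte antigen CD45. Healthy mice (n = 4) were left untreated, and the other groups were taken 1 day (n = 2), 3 days (n = 4) or 7 days (n = 4) after 1 intraperitoneal injection of carbon tetrachloride (CCl4), a solvent toxic to hepatocytes, at 0.5 µl per g body weight in mineral oil. No group received the oil alone, and the labels give an age of 10 to 12 weeks. CD32 antibodies bind Fc gamma receptors, which macrophages carry too. Each sample is 1 mouse, so the p-values measure the spread between mice. The count table sums to 46401496 to 103912264 in the 14 libraries. Levels are CPM, the counts of a gene scaled to library size, after TMM scaling, and a gene was called at an adjusted p under 0.05 in edgeR's quasi-likelihood test over all 26626 genes.

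When tissue is injured, macrophages engulf dying cells and digest their lipids in lysosomes. In that state they carry Trem2, a receptor that senses lipids and lipoproteins and signals through the adaptor Tyrobp, and they express genes of lysosomes, lipid handling and matrix turnover. Such cells have been described in fat, atherosclerotic plaques, brain and the scarred liver under names such as lipid-associated or scar-associated macrophages. Several of the genes are also active in osteoclasts, and several are not restricted to macrophages: Spp1 is well known from bile duct epithelium, and Cd9 and Lgals3 are made by many cell types.

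The 5 sequences that follow are promoter stretches of members whose RefSeq windows hold the letters TGANTCA. This is a looser form of TGACTCA, the core of the sites bound by AP-1 factors. The stretches of Trem2 (TGAATCA) and Ms4a7 (TGATTCA) hold the looser form only. TGANTCA was found for more members than any of the other 4 distinct elements looked for, which is why these stretches are shown. TGACTCA, read on either strand, was found for 3 members, fewer than the 4 of GGAAGT. Each stretch runs from 100 bases before to 20 bases after a RefSeq start site on the gene's own strand (GRCm38.p6), with the match in capitals. The Gpnmb stretch (chr6:49036418-49036537, plus strand) ends just before the GENCODE gene start, and those of Itgax (chr7:128129450-128129569, plus strand) and Trem2 (chr17:48346301-48346420, plus strand) span it. The stretches of Mmp12 (chr9:7347274-7347393, plus strand) and Ms4a7 (chr19:11334676-11334795, minus strand) lie at start sites inside the annotated gene.
Gpnmb: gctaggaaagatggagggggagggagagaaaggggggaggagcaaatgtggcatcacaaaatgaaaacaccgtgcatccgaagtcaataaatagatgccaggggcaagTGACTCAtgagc
Itgax: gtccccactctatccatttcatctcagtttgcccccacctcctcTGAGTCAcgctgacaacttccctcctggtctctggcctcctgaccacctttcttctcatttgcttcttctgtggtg
Mmp12: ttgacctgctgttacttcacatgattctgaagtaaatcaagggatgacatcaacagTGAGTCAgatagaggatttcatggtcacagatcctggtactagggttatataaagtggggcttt
Trem2: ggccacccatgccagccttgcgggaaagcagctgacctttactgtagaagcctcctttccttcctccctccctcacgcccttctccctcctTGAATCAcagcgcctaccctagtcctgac
Ms4a7: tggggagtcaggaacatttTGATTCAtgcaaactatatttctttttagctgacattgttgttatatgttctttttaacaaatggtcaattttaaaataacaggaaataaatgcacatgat

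RefSeq windows from 250 bases before to 50 bases after a start were given for 8 members, 11 windows in all, and were searched on both strands. TGANTCA was found in 5 of these 11 windows (5 of the 8 members), against 7.81% of all 32851 windows. The stricter TGACTCA, which is contained in it, was found in 3 of the 11 (3 members) against 5.20% of windows. The percentages here are shares of windows, and no share over genes was taken. The letters CATGTG, bound by factors of the MiT/TFE family, were found in 3 windows, of Cd9, Mmp12 and Ms4a7 (14.2% of all windows), and CACGTG in 0 (7.15%). GGAAGT, bound by ETS factors such as PU.1, was found in 5 windows, of Itgax, Mmp12, Ms4a7 and Spp1 (23.8%), and TATAAA in 2, of Mmp12 and Spp1 (13.6%). These matches describe the letters in the windows and are not evidence that a factor was bound there.

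Against healthy LSECs, 2 of the 8 genes other than Gpnmb and Atp6v0d2 were called higher at day 1, 4 at day 3 and 5 at day 7, and none was called lower. Over all tested genes, the share called higher was 2.42% at day 1, 4.62% at day 3 and 2.19% at day 7, and the share called lower was 1.64%, 2.58% and 0.992%. Lgals3 and Mmp12 were called at all 3 days, Trem2 and Spp1 at days 3 and 7, and Itgax at day 7. Cd9, Ms4a7 and Dcstamp did not pass the test at any day. DESeq2 called 4 of the 8 higher at day 1, 6 at day 3 and 7 at day 7, where it called 4.52%, 8.81% and 6.45% of all genes. Every mouse of the injured group lay above every healthy mouse for 4 of the 8 at day 3 and 7 at day 7, as it did for 7.53% and 8.72% of all genes. The median log2 difference of the 8 genes was 1.48 at day 1, 2.24 at day 3 and 3.10 at day 7, beside -0.03, 0.18 and 0.02 over all tested genes. The day 1 count was 1 without healthy replicate 1 or 4 or day 1 replicate 2 and 0 without day 1 replicate 1, and the day 3 count was 2 without healthy replicate 1 or 4. The 3 comparisons share the same 4 healthy mice, so they are not independent of one another.

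**Figure D1:**
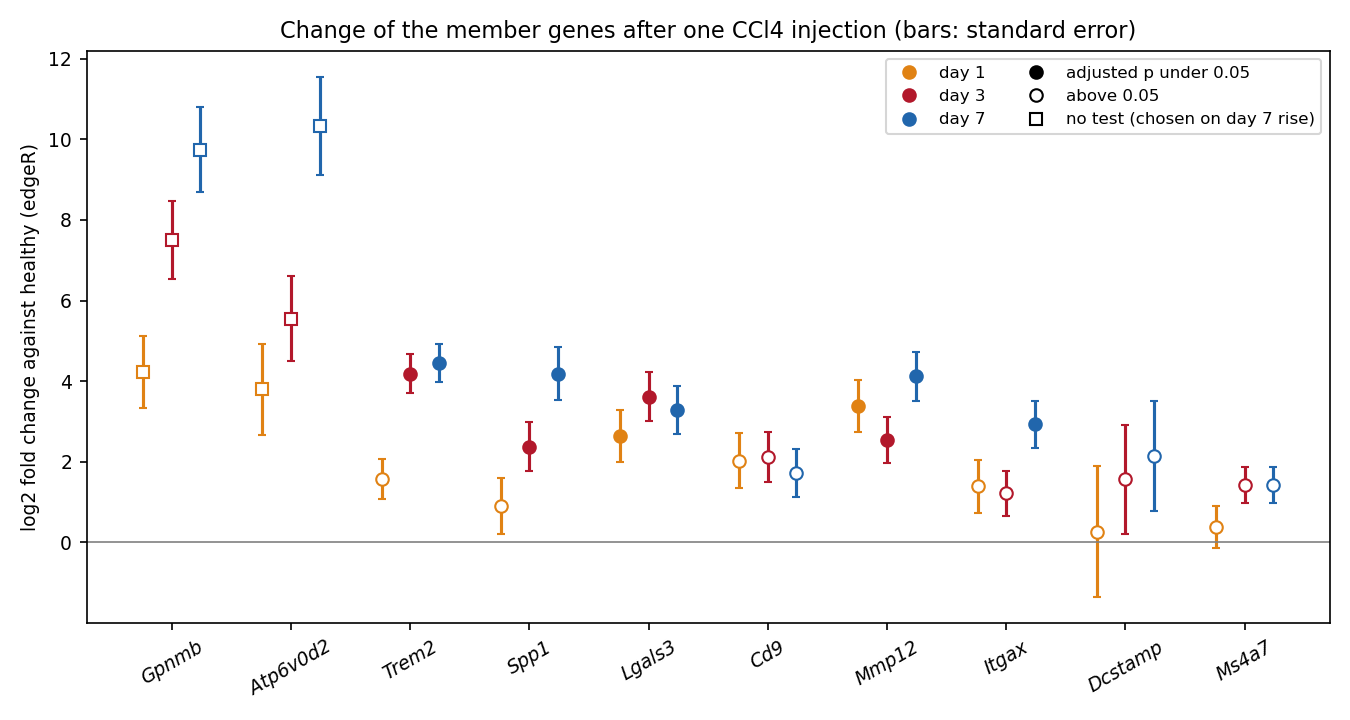
Log2 difference of each of the 10 genes against healthy LSECs (vertical axis, from edgeR) at days 1, 3 and 7, with bars of 1 standard error. Filled circles passed the test, open circles did not, and squares mark Gpnmb and Atp6v0d2, which are shown without a test. Trem2, Spp1, Lgals3, Mmp12 and Itgax are filled at day 7 (2.93 to 4.45).

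Gpnmb (ENSMUSG00000029816, chromosome 6, 49036546 to 49070929, GRCm38) encodes a transmembrane glycoprotein of lysosomes, phagosomes and melanosomes. It was at 0.0299 (3 reads), 1.74, 0.874 and 0.824 CPM in the 4 healthy mice, and at 26.9 and 5.31 CPM in the 2 mice at day 1. At day 3 the 4 mice stood at 94.1, 110.3, 132 and 287 CPM, and at day 7 at 543, 1095, 916 and 398 CPM. No 2 groups overlapped, and each later group lay wholly above the earlier one. The log2 difference from healthy was 4.22 at day 1 (standard error 0.89), 7.50 at day 3 (0.96) and 9.74 at day 7 (1.05).

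Atp6v0d2 (ENSMUSG00000028238, chromosome 4, 19876841 to 19922605) encodes a form of the d subunit of the vacuolar proton pump, which acidifies lysosomes, and is known from osteoclasts and macrophages. It had no read in healthy replicates 1 and 4, where 3 reads would give 0.0299 and 0.0343 CPM, and was at 0.129 and 0.0624 CPM in replicates 2 and 3. The 2 mice at day 1 had 1.28 and 0.0660 CPM and the 4 mice at day 3 had 1.02, 0.749, 2.95 and 4.30 CPM, before 42.8, 75.5, 88.7 and 42.2 CPM at day 7. Day 7 thus lay far above every other group, while day 1 overlapped both healthy and day 3. The log2 difference from healthy was 5.55 at day 3 (standard error 1.05) and 10.33 at day 7 (1.22), and its value at day 1, 3.80 (1.13), was 0.45 without day 1 replicate 1. The partner form Atp6v0d1, which most cells use, was at 59.4 ± 8.98 CPM (SD, n = 4) in healthy LSECs and 55.0 ± 14.1 CPM (n = 4) at day 7, a log2 difference of -0.11 (edgeR, adjusted p = 0.832).

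Trem2 (ENSMUSG00000023992, chromosome 17, 48346401 to 48354147) showed the largest log2 difference at days 3 and 7 among the 8 genes that could be tested. It was at 2.10, 5.64, 5.10 and 2.54 CPM in healthy LSECs and at 13.7 and 9.25 CPM at day 1. At day 3 it was at 114, 84.5, 40.0 and 40.8 CPM, and at day 7 at 67.0, 103.9, 117 and 47.3 CPM. All injured mice lay above all healthy mice, and days 3 and 7 overlapped. Trem2 was higher by 4.19 on the log2 scale at day 3 (standard error 0.48, edgeR adjusted p = 0.00081) and by 4.45 at day 7 (0.48, adjusted p = 0.00179), while the 1.57 of day 1 did not pass (adjusted p = 0.0993).

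Itgax (ENSMUSG00000030789, chromosome 7, 128129547 to 128150657) encodes the integrin CD11c of dendritic cells and activated macrophages. Its levels were 1.63, 5.24, 5.64 and 1.48 CPM in healthy LSECs, 12.8 and 5.57 CPM at day 1, 8.30, 6.01, 3.85 and 14.4 CPM at day 3, and 10.7, 33.9, 40.5 and 21.3 CPM at day 7. Only day 7 was clear of the healthy range. There Itgax was higher by 2.93 on the log2 scale (standard error 0.59, edgeR adjusted p = 0.0201), a call that was lost without healthy replicate 1 (adjusted p = 0.0707), without day 7 replicate 2 (0.0625) and without day 7 replicate 3 (0.0559). Itgax shared 8.02% of its 50-base stretches with the neighbouring paralog Itgad, whose mean was at most 0.184 CPM in any group.

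Cd9 (ENSMUSG00000030342, chromosome 6, 125460266 to 125494791), a tetraspanin of cell membranes and vesicles, was at 45.5, 42.6, 41.5 and 32.8 CPM in healthy LSECs. At day 1 both mice stood at about the same level, 165.4 and 165.3 CPM, and at day 7 the 4 mice had 128, 202, 136 and 71.3 CPM. Both groups lay wholly above the healthy one, and neither difference passed edgeR's test (2.03 on the log2 scale, adjusted p = 0.128, and 1.73, adjusted p = 0.127). At day 3 Cd9 was at 314 and 310.3 CPM in replicates 1 and 2 but at 53.8 and 28.7 CPM in replicates 3 and 4. The day 3 group therefore reached from below the lowest healthy mouse to above every other sample (log2 difference 2.12, edgeR adjusted p = 0.0529). Of its 50-base stretches, 14.4% occur in other genes, chiefly the antisense gene Gm26728, which was at 0.534 CPM or less in each group.

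Ms4a7 (ENSMUSG00000024672, chromosome 19, 11321039 to 11336146) belongs to a family of 4-span membrane proteins and is used as a mark of macrophages recruited from blood. It was at 5.39, 9.61, 8.70 and 3.98 CPM in healthy LSECs, 12.0 and 6.08 CPM at day 1, 31.7, 21.5, 13.95 and 7.06 CPM at day 3, and 14.99, 14.95, 27.6 and 16.8 CPM at day 7. Every day 7 mouse was above every healthy mouse, day 3 overlapped both, and the log2 difference of 1.43 at day 7 did not pass (standard error 0.44, edgeR adjusted p = 0.0885).

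Spp1 (ENSMUSG00000029304, chromosome 5, 104435118 to 104441050) encodes osteopontin, a secreted ligand of integrins and CD44. Healthy LSECs already had 179, 71.7, 125 and 172 CPM and the day 1 mice 291 and 221 CPM. At day 3 there were 997 and 1164 CPM in replicates 1 and 2 against 313 and 351 CPM in replicates 3 and 4, and at day 7 there were 2557, 5238, 1634 and 567 CPM. Every injured group was above the healthy range, and at day 7 the highest mouse had 9.24 times the level of the lowest. Spp1 was higher by 4.19 on the log2 scale at day 7 (standard error 0.66, edgeR adjusted p = 0.00752). At day 3 it was higher by 2.37 (0.61, adjusted p = 0.0327), a call that did not hold in 8 of the 14 fits that each left out 1 sample (adjusted p from 0.0568 to 0.0931), namely without each of the 4 healthy mice, without either day 1 mouse, and without day 3 replicate 1 or 2. Of its 50-base stretches, 11.6% occur in the overlapping gene Gm42793, which was at 2.60 CPM or less in each group. Markers of bile duct cells, another source of Spp1, were low throughout. The summed level of 10 such genes was 12.3 to 31.6 CPM in healthy LSECs and 11.6 to 43.8 CPM at day 7, and edgeR called 0 of the 9 tested (0 at an unadjusted p under 0.05, 0 by DESeq2 and by limma-voom).

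Lgals3 (ENSMUSG00000050335, chromosome 14, 47367751 to 47386160) encodes galectin-3, a lectin that binds galactose-containing glycans and is recruited to damaged lysosomes. Its levels were 14.7, 74.8, 72.0 and 26.4 CPM in healthy LSECs, 410 and 176 CPM at day 1, 912, 760 and then 264 and 369 CPM at day 3, and 308, 656, 612 and 247 CPM at day 7. All injured mice were above all healthy mice, and the 3 injured groups overlapped. Lgals3 was higher by 2.64 on the log2 scale at day 1 (standard error 0.65, edgeR adjusted p = 0.0356), by 3.62 at day 3 (0.61, adjusted p = 0.00476) and by 3.28 at day 7 (0.60, adjusted p = 0.0131). The day 1 call was lost without healthy replicate 1 or 4 and without either day 1 mouse (adjusted p from 0.0507 to 0.535), and with only the 2 groups in the fit (0.0635).

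Mmp12 (ENSMUSG00000049723, chromosome 9, 7344381 to 7369499) encodes macrophage elastase, an enzyme that cuts elastin and other matrix proteins. It was at 5.07, 14.9, 12.5 and 6.88 CPM in healthy LSECs. The 2 mice at day 1 differed, with 175 and 29.8 CPM, the 4 mice at day 3 were close together at 72.6, 62.6, 48.3 and 46.8 CPM, and those at day 7 had 92.0, 162, 344 and 84.6 CPM. No injured mouse fell in the healthy range, and all day 7 mice were above all day 3 mice. Mmp12 was higher by 3.38 on the log2 scale at day 1 (standard error 0.64, edgeR adjusted p = 0.00958), by 2.55 at day 3 (0.57, adjusted p = 0.0177) and by 4.12 at day 7 (0.61, adjusted p = 0.00546). Without day 1 replicate 1 the day 1 value was 1.56 and no longer passed (adjusted p = 0.526), and the day 3 call was lost without healthy replicate 1 (adjusted p = 0.0583) or 4 (0.0563).

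Dcstamp (ENSMUSG00000022303, chromosome 15, 39745930 to 39760938) encodes a membrane protein needed for the fusion of osteoclasts and of macrophages into giant cells. It stayed close to the limit of detection, at 0.0599, 0.552, 0.218 and 0 CPM in healthy LSECs, 0.467 and 0.0330 CPM at day 1, 1.34, 1.04, 0.0983 and 0 CPM at day 3, and 0.312, 0.965, 1.35 and 1.08 CPM at day 7. In the samples without a read, 3 reads would give 0.0343 CPM (healthy replicate 4) and 0.0319 CPM (day 3 replicate 4). All groups overlapped, and the log2 difference of 2.15 at day 7 (standard error 1.37) did not pass edgeR's test (adjusted p = 0.385). Ocstamp, its partner in cell fusion, was highest at day 1, at 3.79 and 2.15 CPM against a mean of 0.178 CPM in healthy LSECs (log2 difference 4.05, standard error 1.19, edgeR adjusted p = 0.0771). Both day 1 mice were above all other samples for Ocstamp, which had a mean of 0.347 CPM at day 7 (edgeR, adjusted p = 0.629).

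**Figure D2:**
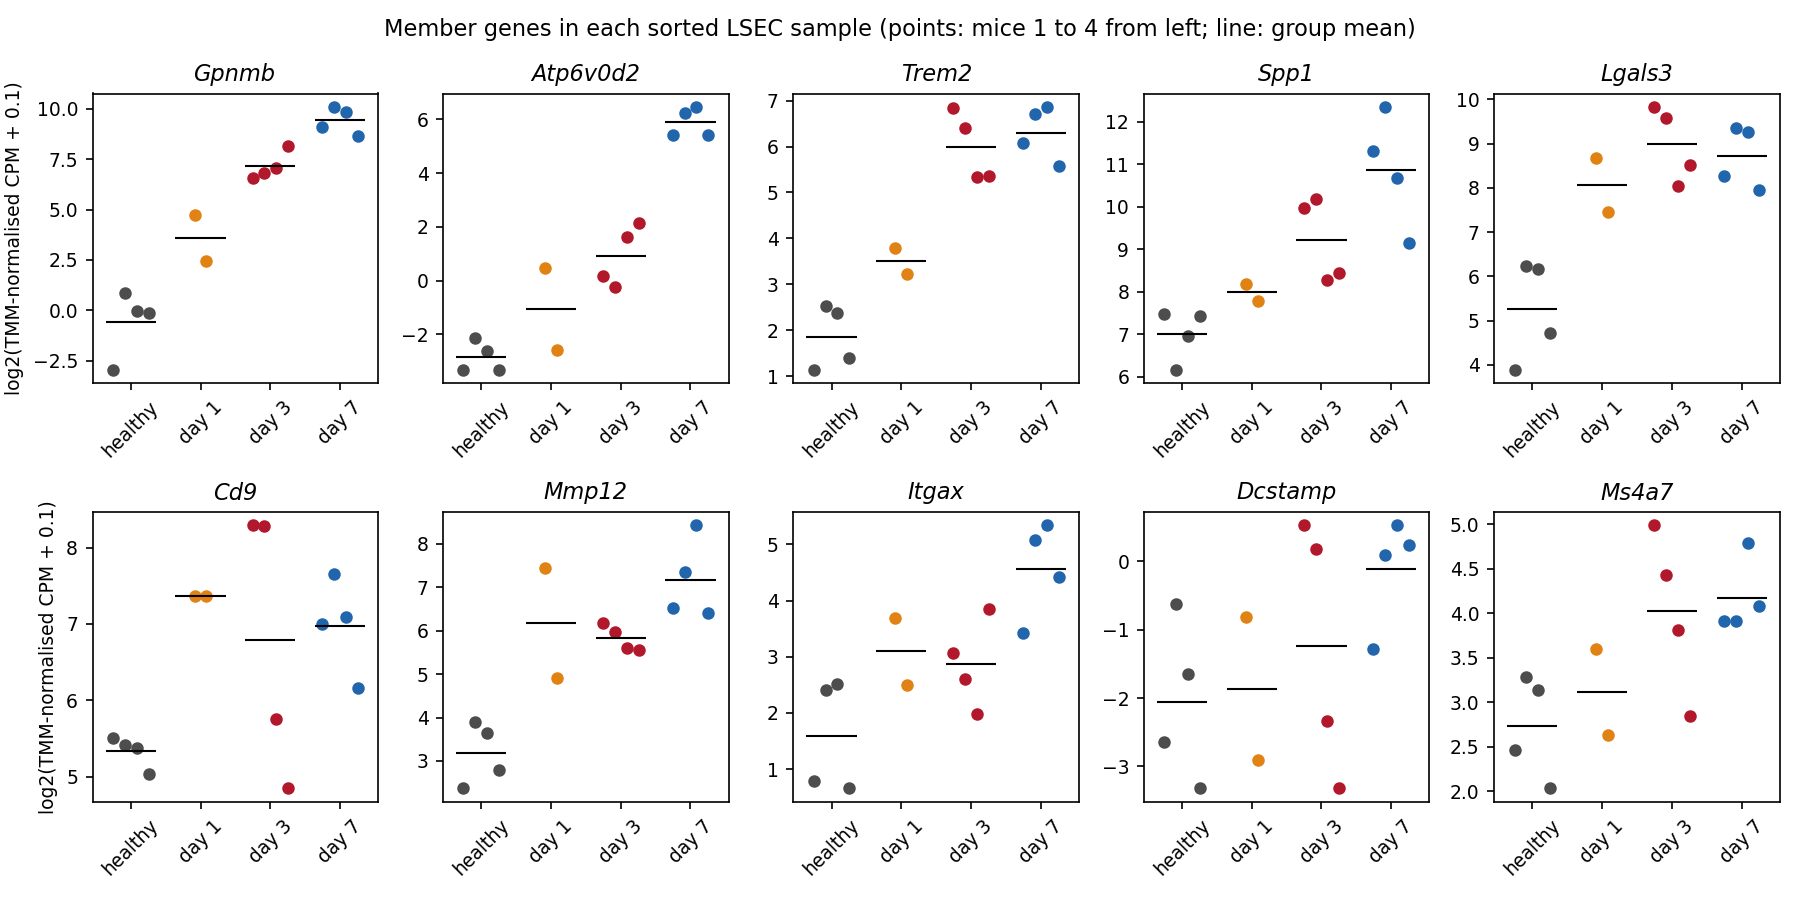
Level of each of the 10 genes in each mouse, as log2 of TMM-scaled CPM plus 0.1 (vertical axis, a separate scale for each gene), by group (horizontal axis), with 1 point per mouse and a line at the group mean of these log2 values. The mean lines of Gpnmb and Atp6v0d2 climb group by group, although Atp6v0d2 at day 1 overlaps healthy and day 3. Trem2 and Lgals3 reach their day 7 range by day 3. At day 3 the highest CPM was 10.9 times the lowest for Cd9, 5.74 times for Atp6v0d2 and 4.49 times for Ms4a7. Dcstamp ran from 0 to 1.34 CPM there, and the other genes spread 1.55 to 3.74 times.

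Divided by the length of the gene's exons, which allows genes to be compared, Spp1 was the most abundant of the 10 in healthy LSECs (a mean of 83.1 CPM per kb), followed by Lgals3 (25.3) and Cd9 (19.9), and all others were at 1.55 or less. Gpnmb ranked 8 of 10 there with 0.133 CPM per kb. At day 7 Spp1 was at 1516, Lgals3 at 245, Gpnmb at 113, Cd9 at 65.7, Mmp12 at 23.6, Atp6v0d2 at 22.9 and Trem2 at 16.9 CPM per kb, with Itgax (5.54), Ms4a7 (4.18) and Dcstamp (0.347) below them. Gpnmb stood above Trem2 at day 7 and below it in healthy LSECs. Gpnmb was chosen by its difference between these groups, so nothing is drawn from this change of order.

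Day 3 against day 1 compares no mouse on which Gpnmb and Atp6v0d2 were picked, so all 10 genes were tested in it, although the healthy and day 7 mice also entered the estimate of the spread. Trem2 was the 1 gene called, higher at day 3 by 2.61 on the log2 scale (standard error 0.59, edgeR adjusted p = 0.0323), where 1.57% of all genes were called higher. This call was lost with only the mice of these 2 days in the fit (adjusted p = 0.0915), without either day 1 mouse (0.248 and 0.325) and without day 3 replicate 1 (0.0512) or 2 (0.0521). Gpnmb was higher in all 4 day 3 mice than in both day 1 mice, by 3.28 on the log2 scale, and did not pass (standard error 1.05, edgeR adjusted p = 0.130). It passed without healthy replicate 1, which raised the count to 2, and with DESeq2 (6.23% of all genes called higher) and limma-voom (5.75%). Atp6v0d2 differed by 1.75 (standard error 1.07, edgeR adjusted p = 0.458) with overlap between the days. Every day 3 mouse lay above every day 1 mouse for Gpnmb, Trem2 and Spp1, 3 of the 10 genes, where 11.4% of all genes did.

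Between day 3 and day 7, Gpnmb and Atp6v0d2 were higher at day 7 by 2.24 and 4.78 on the log2 scale, values given without a test. EdgeR called 0 of the other 8 genes (0.413% of all genes were called higher and 1.36% lower), with 3 of the 8 at an unadjusted p under 0.05, namely Spp1, Itgax and Mmp12. DESeq2 called Spp1 and Itgax higher at day 7 (2.48% of all genes), limma-voom called Itgax (8.02%), and edgeR called 1 gene without day 3 replicate 4. The log2 differences were 1.82 for Spp1 (standard error 0.60, edgeR adjusted p = 0.145), 1.71 for Itgax (0.57, adjusted p = 0.150) and 1.57 for Mmp12 (0.55, adjusted p = 0.172). For Mmp12 all day 7 mice lay above all day 3 mice, as they did for 3.76% of all genes. Trem2, Lgals3, Cd9, Ms4a7 and Dcstamp lay between -0.39 and 0.58, with standard errors of 0.42 to 1.31.

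The 4 mice at day 3 did not rank alike for all members. Replicates 1 and 2 had the 2 highest values of Trem2, Spp1, Lgals3, Cd9, Mmp12, Dcstamp and Ms4a7. Replicates 3 and 4 had the 2 highest values of Gpnmb and Atp6v0d2, with 287 CPM of Gpnmb in replicate 4 against 94.1 CPM in replicate 1. The same 2 libraries, replicates 1 and 2, had reads on more genes than any other sample (34678 and 34768) and the most monocyte marker RNA, with a summed level of 2465 and 1267 CPM over 10 genes against 189 and 189 CPM in replicates 3 and 4. The part of this split in the results was not tested, and it bears on the counts as follows. Without these 2 libraries, an alternative chosen after seeing the data, 2 of the 8 genes (Trem2 and Lgals3) were called at day 3, 7 at day 7 (all but Dcstamp), and 4 at day 1. Of the 24856 genes tested in that fit, 1334 were called higher at day 3, 1196 at day 7 and 1079 at day 1. With all 14 samples these were 1229, 582 and 644 of 26626, so more genes were called at days 1 and 7 over all genes too. Between day 3 and day 1, 0 of 10 were then called higher and Cd9 was called lower at day 3, by -2.01 on the log2 scale (edgeR, adjusted p = 0.017). Over all genes, 1037 were called higher and 886 lower in that comparison. Cd9 at day 3 then differed from healthy by -0.00061, and between day 3 and day 7 it was higher at day 7 by 1.76 (edgeR, adjusted p = 0.0349).

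The sorted samples carried the marks of endothelium and, at lower levels, of other cells. The 14 LSEC and endothelial markers summed to 19190 to 23360 CPM in healthy mice and 11680 to 16150 CPM at day 7, and Stab2, a scavenger receptor that defines LSECs, was at 1814 ± 164 CPM (SD, n = 4) and 1519 ± 269.7 CPM (n = 4). EdgeR called 0 of these 14 genes higher and 1 lower at day 7 (Tek), with 5 lower at an unadjusted p under 0.05, while DESeq2 called 4 lower and limma-voom 9. Over all 26626 genes at day 7, limma-voom called 3597 higher and 3450 lower, DESeq2 1717 and 1005, and edgeR 582 and 264. The 12 general macrophage markers summed to 1758 to 3574 CPM in healthy mice, 3810 to 5025 CPM at day 1, 3271 to 11810 CPM at day 3 and 6452 to 11590 CPM at day 7. Cd68 and Lyz2 were called higher at day 7 by edgeR, 2 of the 12, with 5 higher at an unadjusted p under 0.05, 4 called by DESeq2 and 5 by limma-voom. Of the genes that define the lineage, Adgre1, which encodes the sorted-out antigen F4/80, was at 99.3 ± 35.3 CPM against 39.5 ± 22.0 CPM in healthy mice (edgeR, adjusted p = 0.153), and Csf1r was at 208 ± 56.0 CPM against 121 ± 71.7 CPM (edgeR, adjusted p = 0.342). Ptprc, which encodes CD45, was at 141 ± 9.44 CPM at day 7 and 70.0 ± 37.6 CPM in healthy mice (edgeR, adjusted p = 0.259), and every day 7 mouse was above every healthy mouse. The same held for the sum of 10 pan-leukocyte markers, at 1445 to 1894 CPM at day 7 and 626 to 1279 CPM in healthy mice, of which edgeR called 1 higher (Itgb2) and DESeq2 and limma-voom 3 each. Each of the 12 macrophage markers had reads in every group, healthy mice included.

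The 10 markers of Kupffer cells, the resident macrophages of the liver, summed to 361 to 1521 CPM in healthy mice and 534 to 1093 CPM at day 7, with Clec4f at 391 ± 225 and 205 ± 108 CPM (edgeR, adjusted p = 0.391). EdgeR called 0 of the 10 at day 7 in either direction (1 at an unadjusted p under 0.05, lower, 0 by DESeq2 and 1 lower by limma-voom). At day 1 DESeq2 and limma-voom each called 1 of them higher and 1 lower. Of 10 monocyte markers, edgeR called 4 higher at day 1, 7 at day 3 and 2 at day 7, F13a1 and Vcan. Their sum was 54.0 to 163 CPM in healthy mice and 607 to 680 CPM at day 1, when Lgals3 and Mmp12 were called. Of 10 neutrophil markers, 5 were called higher at day 1 and 1 at day 3, with sums of 21.8 to 149 CPM in healthy mice and 2763 to 6937 CPM at day 1. Ly6c2, which marks inflammatory monocytes, was at 198 ± 259.5 CPM at day 3 and back at 15.2 ± 5.69 CPM at day 7, beside 15.9 ± 11.0 CPM in healthy mice. Stellate cell markers were called higher in 11 of 14 cases at day 3 and 12 of 14 at day 7. Their sum was 185 to 325 CPM in healthy mice, 942 to 2744 CPM at day 3 and 519 to 7721 CPM at day 7. Hepatocyte markers summed to 206 to 9185 CPM in healthy mice and 811 to 6557 CPM at day 7, and dendritic cell markers to 747 to 2150 and 1260 to 2338 CPM. Whether a difference stems from more cells of a type in the sort or from more RNA per cell cannot be told apart in such bulk samples, and the part of these marker levels in the members' results was not tested.

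**Figure D3:**
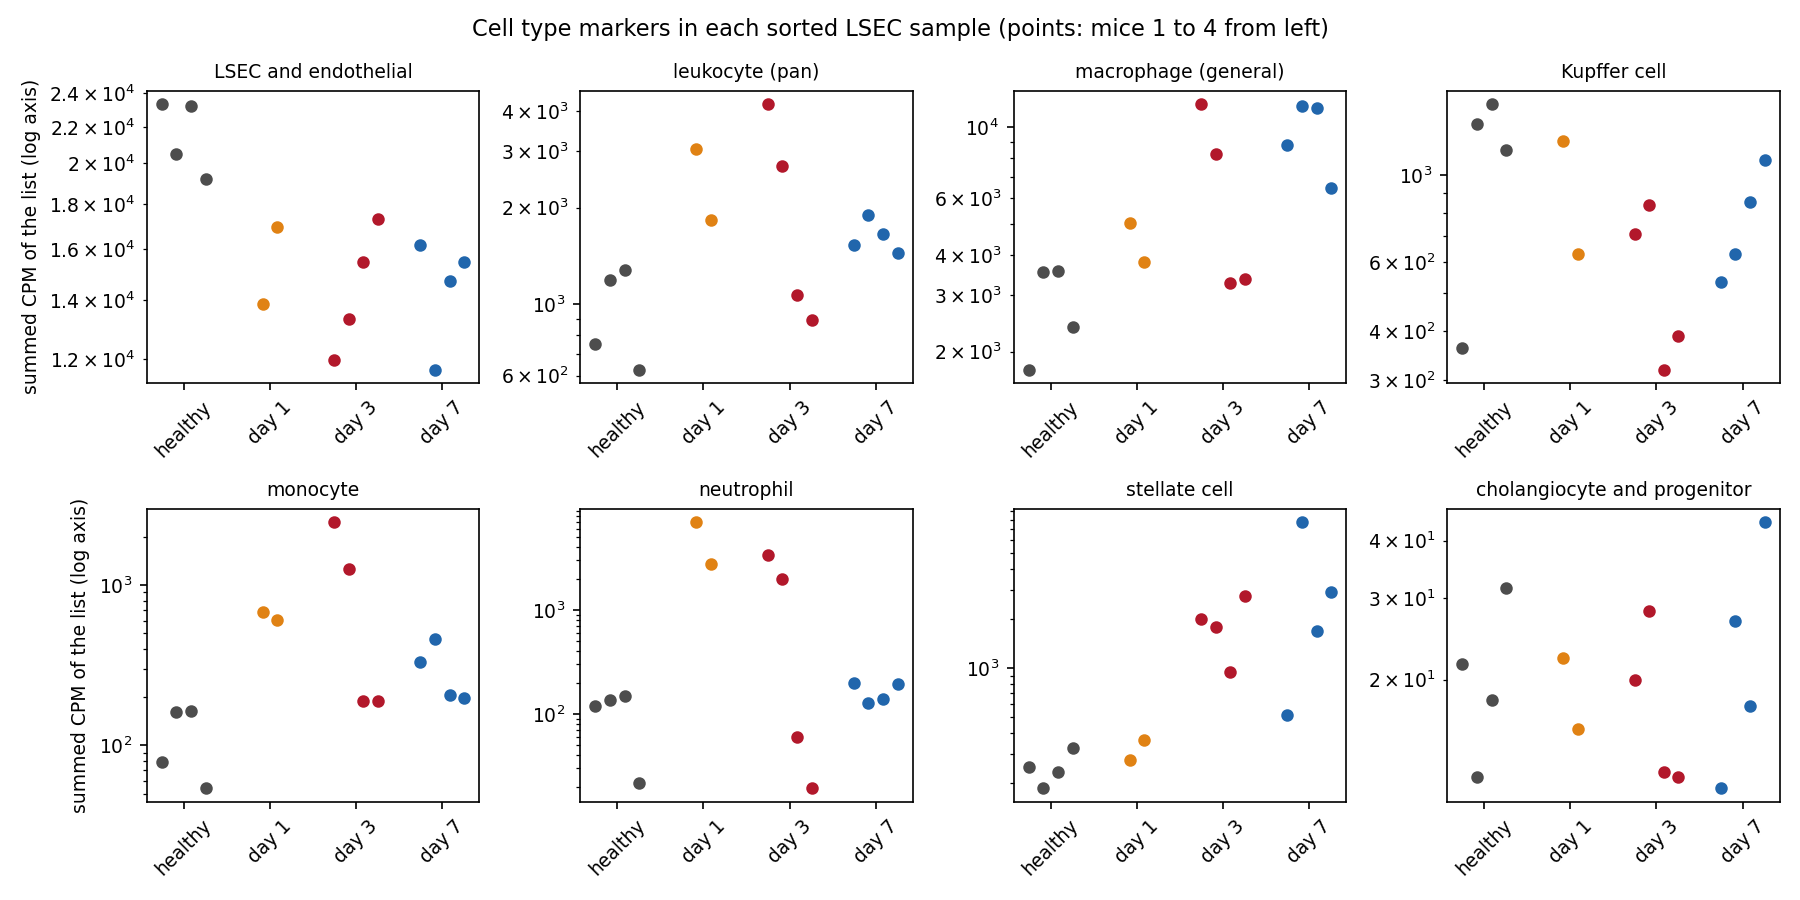
Summed CPM of 8 lists of cell type markers in each mouse (vertical axes on a log scale, 1 per list) by group. The general macrophage list is at 6452 to 11590 CPM at day 7 against 1758 to 3574 CPM in healthy mice, while day 3 replicates 1 and 2 lie apart from replicates 3 and 4 for leukocyte, macrophage, monocyte and neutrophil markers.

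In day 3 replicates 3 and 4 the macrophage markers and the members could be read side by side. The general macrophage markers of these mice summed to 3271 and 3370 CPM, inside the healthy range of 1758 to 3574 CPM. Msr1 alone was at 799 and 849 CPM (healthy, 818 to 1030), so this sum is no plain measure of macrophages. Single markers went apart within this sum. Cd68 was at 245 and 233 CPM (healthy, at most 112) and Lyz2 at 1347 and 1266 CPM, above all healthy mice. C1qa, C1qb and C1qc lay below 3 of the 4 healthy mice, as did the Kupffer cell marker Cd5l, which is outside this sum. In the same 2 samples Trem2 was at 40.0 and 40.8 CPM (healthy, at most 5.64), Gpnmb at 132 and 287 CPM (healthy, at most 1.74) and Lgals3 at 264 and 369 CPM (healthy, at most 74.8). Cd9, at 53.8 and 28.7 CPM (healthy, 32.8 to 45.5), and Itgax, at 3.85 and 14.4 CPM (healthy, 1.48 to 5.64), were above the healthy range in 1 of the 2 mice each, as was Ms4a7, at 13.95 and 7.06 CPM (healthy, 3.98 to 9.61), while Dcstamp, at 0.0983 and 0 CPM, was within it.

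The members were also expressed as reads per 100 reads of the 12 general macrophage markers, a ratio within each sample that needs no scaling between samples. Gpnmb was at 0.0017 to 0.0490 reads per 100 in healthy mice and at 6.16 to 9.45 at day 7. Trem2 went from 0.107 to 0.159 in healthy mice to 0.733 to 1.02 at day 7, Lgals3 from 0.835 to 2.11 to 3.49 to 5.66, and Mmp12 from 0.288 to 0.419 to 1.04 to 3.00, in each case without overlap. Spp1, Itgax, Cd9, Ms4a7 and Dcstamp overlapped with healthy mice on this scale, so that 3 of the 8 genes were above in every mouse, where 0.526% of all genes were. Lyz2, the gene of lysozyme, gave 60.7% to 80.3% of the marker reads at day 7 and 20.2% to 33.8% in healthy mice. With Lyz2 left out of the sum, 6 of the 8 genes were above in every day 7 mouse (Trem2, Spp1, Lgals3, Mmp12, Itgax and Ms4a7), where 4.79% of all genes were. Of the markers then left, Msr1 was the most abundant in each of these mice, at 818 to 1030 CPM in healthy mice and 495.5 to 907 CPM at day 7. In healthy replicate 1 Msr1 was at 878 CPM, beside Adgre1 at 10.2 and Csf1r at 24.4 CPM. Msr1 also counts in the full sum of 12 markers, which was 1758 CPM in healthy replicate 1. With or without Lyz2, the sum is thus no plain measure of macrophages, and the part of Msr1 in these ratios was not tested. At day 3 the genes above in every mouse were Trem2, Lgals3 and Mmp12 (1.13% of all genes), and Spp1 joined them without Lyz2 (3.67%). At day 1 there were 4, Trem2, Lgals3, Cd9 and Mmp12 (5.21%), and Itgax joined them without Lyz2 (6.52%). With Lyz2 in the sum, Lgals3 was lower in every day 7 mouse than in every day 3 mouse (7.72 to 10.9). With Lyz2 left out these days overlapped, at 9.74 to 28.7 at day 7 and 13.7 to 27.7 at day 3. The share of all genes lower in every day 7 mouse was not taken.

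**Figure D4:**
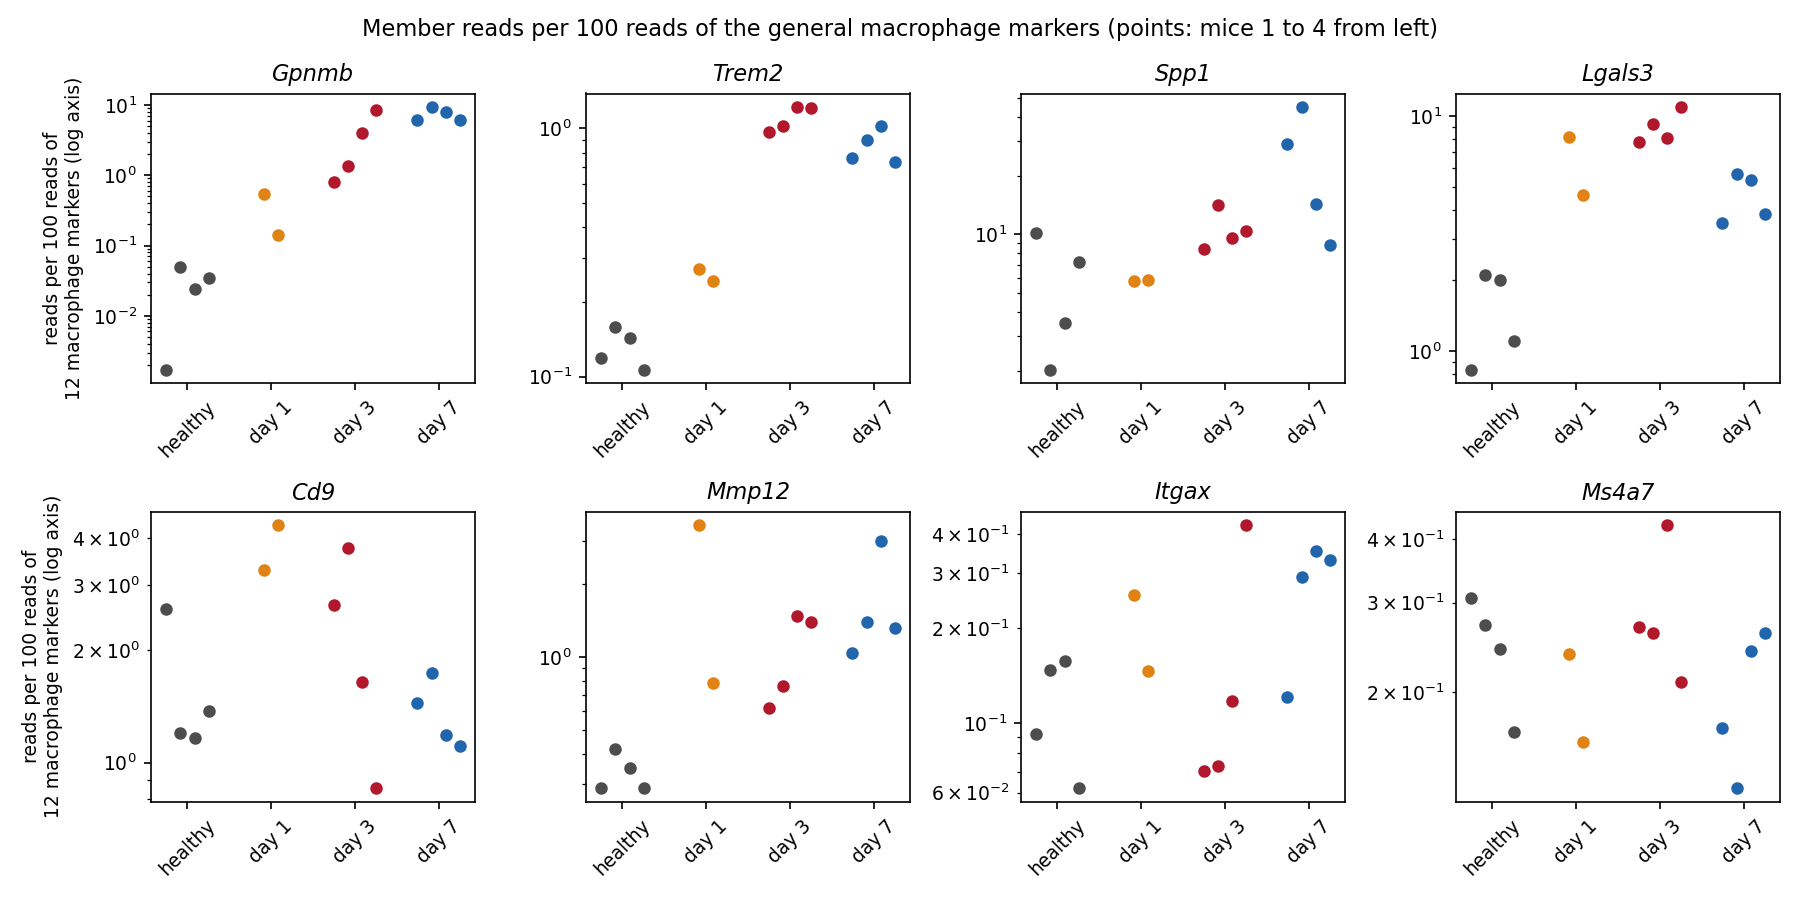
Reads of 8 members per 100 reads of the 12 general macrophage markers in each mouse (vertical axes on a log scale) by group. Atp6v0d2 and Dcstamp, which have samples at 0, are left out. At day 7 Gpnmb, Trem2, Lgals3 and Mmp12 lie above all healthy mice, while Cd9 (1.11 to 1.74 against 1.16 to 2.59) and Ms4a7 (0.129 to 0.261 against 0.167 to 0.307) do not.

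Other genes of the programme were followed from lists drawn up with earlier results of these data known. Of 26 further genes described in lipid-associated macrophages, 6 were called higher and 4 lower at day 1, 11 were called higher and 2 lower at day 3, and 7 higher and 1 lower at day 7 (2.58% of all genes were called lower at day 3 and 0.992% at day 7). The 11 became 6 or 7 without any 1 of the healthy mice, either day 1 mouse, day 3 replicate 1 or day 7 replicate 4, and 6 without day 3 replicates 1 and 2 together, while the 7 of day 7 became 4 without healthy replicate 1 or 3 or day 7 replicate 2. The 2 lower calls of day 3, Apoe and Cxcl16, became 0 without healthy replicate 1, 2 or 3 or day 3 replicate 2. Apoe, a lipoprotein component that Trem2 binds, was at 4434 ± 1049 CPM in healthy LSECs and fell by 1.28 on the log2 scale at day 1 (edgeR, adjusted p = 0.010) and by 0.72 at day 3 (adjusted p = 0.036), and its -0.26 at day 7 did not pass (adjusted p = 0.464). Cxcl16, a chemokine and scavenger receptor, fell by 1.57 at day 1 (edgeR, adjusted p = 0.00172) and by 0.62 at day 3 (adjusted p = 0.0434). The list's median log2 difference was 0.60 at day 3 and 0.39 at day 7. Healthy LSECs had 25 of the 26 at 10 CPM or more, which limits the list as a mark of macrophages. Syngr1, a vesicle membrane protein, rose from 0.542 ± 0.264 CPM to 16.8 ± 7.58 CPM at day 7 (log2 difference 4.96, standard error 0.56, edgeR adjusted p = 0.00179). Its annotated span overlaps that of Rpl3 on the opposite strand. Reads from any stretch that both share cannot be told apart without strand-marked reads, and whether their exons overlap is not given here. Lpl, the lipase that frees fatty acids from lipoproteins, rose from 31.9 ± 16.0 to 361 ± 143 CPM (3.50, standard error 0.48, edgeR adjusted p = 0.00481). Capg, which caps actin filaments, and Cd63, a tetraspanin of lysosomes, rose by 2.99 and 2.68. Anxa5, which binds phosphatidylserine on dying cells, fell by 0.73 (edgeR, adjusted p = 0.0436). It is named because it was the 1 gene called lower, and the call was lost without any 1 of the healthy mice, either day 1 mouse, day 3 replicate 2, or day 7 replicate 2, 3 or 4.

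No partner of Trem2 passed the test at day 7. EdgeR called 0 of 13 genes around Trem2 signalling then, with 4 higher and 0 lower at an unadjusted p under 0.05, and 1 higher without healthy replicate 4, day 3 replicate 1, day 3 replicate 4 or day 7 replicate 1. DESeq2 called 3 of them higher and limma-voom 4. At day 3 edgeR had called 1 lower (Apoe) and 3 higher (Ms4a4a, Ms4a6d and Plcg2), the latter a count that was 1 without healthy replicate 1 or 4 or day 3 replicate 1 or 2, 5 without day 3 replicate 4, and 0 without day 3 replicates 1 and 2 together. Tyrobp, its signalling adaptor, was at 216 ± 57.3 CPM at day 7 and 85.0 ± 42.9 CPM in healthy mice, a log2 difference of 1.35 (standard error 0.66, edgeR adjusted p = 0.262). Among 15 ligands and receptors around Spp1, Lgals3, Gpnmb and Cd9, 3 were called higher and 1 lower at day 7, and 5 were called higher without healthy replicate 4 or day 3 replicate 4. Cd44, the osteopontin and hyaluronan receptor, rose from 25.8 ± 11.4 to 90.6 ± 25.8 CPM at day 7 (1.81, standard error 0.40, edgeR adjusted p = 0.0294). Itgb3, an integrin subunit that binds osteopontin, was highest at day 1, at 339 and 445 CPM against 4.92 to 13.6 CPM in healthy mice. It was lower at day 3 than at day 1, by -2.91 on the log2 scale (edgeR, adjusted p = 0.00195), and at 21.0 to 43.2 CPM at day 7 was still 1.83 above healthy mice (edgeR, adjusted p = 0.00925). Ptgfrn, a tetraspanin partner, rose by 1.87 at day 7 (edgeR, adjusted p = 0.0132), while the tetraspanin Cd81 fell by 1.11 (edgeR, adjusted p = 0.0364). The count called lower was 0 in 12 of the 14 fits that left out 1 sample, those without day 3 replicate 4 or day 7 replicate 1 excepted.

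Of 24 other subunit genes of the proton pump, 21 were tested and edgeR called 0 higher at day 7 (1 at an unadjusted p under 0.05, 0 by DESeq2, 2 by limma-voom) and 1 lower, Atp6v1h, by -0.60 on the log2 scale (edgeR, adjusted p = 0.0327), with 4 lower at an unadjusted p under 0.05. DESeq2 called 3 lower and limma-voom 9, where they called 1005 and 3450 of all 26626 genes lower. EdgeR's lower count was 0 without healthy replicate 1, 2 or 3, either day 1 mouse, or day 7 replicate 2, 3 or 4, 2 without healthy replicate 4, day 3 replicate 1 or day 7 replicate 1, and 3 without day 3 replicate 4. The median log2 difference was -0.36. Of 15 tested osteoclast and giant cell genes, Ctsk and Itgb3 were called higher at day 7, 2 in all. The count was 1 without any 1 of the healthy mice, either day 1 mouse or day 7 replicate 2 or 3, and 4 without day 3 replicate 4 or day 7 replicate 1. Ctsk, the collagen-cutting cathepsin of osteoclasts, rose 2.39 times over healthy mice, to 31.0 CPM (log2 difference 1.25, standard error 0.29, edgeR adjusted p = 0.0388).

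Factors of the MiT/TFE family switch on lysosomal genes, and Gpnmb is a known target of Mitf. Mitf was the 1 of the 4 family genes called higher at day 7. It was at 4.31 ± 0.954 CPM in healthy LSECs, 6.03 ± 0.654 CPM (n = 2) at day 1, 13.7 ± 6.05 CPM at day 3 and 18.0 ± 3.76 CPM at day 7. The rise was 1.66 on the log2 scale at day 3 (standard error 0.31, edgeR adjusted p = 0.00751) and 2.06 at day 7 (0.31, adjusted p = 0.006), without overlap with healthy mice at either day. Tfec, Tfeb and Tfe3 differed by -0.67, -0.58 and -0.23 at day 7 and were not called, although DESeq2 and limma-voom each called 2 of the family lower and edgeR 1 without day 7 replicate 1. Melanocytes also use Mitf and Gpnmb. Their 5 markers, among them Pmel, the closest relative of Gpnmb, summed to 0.799 to 2.05 CPM in healthy mice and 0.706 to 1.08 CPM at day 7, and edgeR called 0 of the 4 tested (0 at an unadjusted p under 0.05, 0 by DESeq2 and by limma-voom).

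Across the 14 samples the members tracked Gpnmb and Atp6v0d2 to different degrees. The correlation of log2 CPM with the mean of the pair was 0.915 for Trem2, 0.899 for Mmp12, 0.867 for Itgax, 0.825 for Lgals3, 0.814 for Spp1, 0.715 for Ms4a7, 0.517 for Dcstamp and 0.428 for Cd9 (Pearson's r, n = 14). These values describe samples that share libraries and differ by group, and carry no test. The pair was chosen on its healthy and day 7 values, so a gene that was higher at day 7 correlates with it by that choice, and nothing is drawn from the order. The genes with the highest correlation outside the list were Gm45223 (0.949), Ahnak2 (0.938), Syngr1 (0.935), Specc1 (0.924) and Trps1 (0.920), followed by 4930469K13Rik, Gm48302, Rab11fip5, Abcd2 and Fn1 (0.917 to 0.912). Fn1, the matrix protein fibronectin, went from a mean of 11.4 CPM in healthy LSECs to 282 CPM at day 7, and Ahnak2 from 0.372 to 12.3 CPM. Of the 10, Ahnak2 and Abcd2 are the ones that overlap no other annotated gene. Ranking by Spearman's correlation kept 4 of these 10 genes.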

How the data were processed

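RNA from sorted LSECs of 14 mice was prepared with a SMART-Seq v4 kit, which does not mark strand. The authors aligned the reads to the mouse genome and deposited raw counts per gene. The submitters' processing notes name STAR, StringTie and GRCm38, while the annotation release and the counting setting were not given in the sources used here. The study compared groups with DESeq2 and left out further day 1 samples for low RNA integrity.

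From these counts, genes were kept by filterByExpr (minimum count 10, minimum total 15), scaled by TMM and tested with edgeR 4.0.16 in R 4.3.3 (quasi-likelihood, 4 group means, 14 samples), with Benjamini-Hochberg adjustment over 26626 genes and a threshold of 0.05. Alternatives were DESeq2 1.42.0, limma-voom (limma 3.58.1), other scaling and filters, only the 2 groups compared, a replicate block, and each sample left out. Log2 CPM used a prior count of 2. Floors of 3 reads cover counting error only. The text names the members, defining markers, the partners of 3 members, up to 4 called genes per related list with the largest day 7 difference, and the 10 most alike genes. The members and lists were chosen with earlier results of these data known. The fits were tested on simulated data.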

Additional observations from a re-analysis of the deposited data

Results flagged for a closer look

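Ms4a7 stood at 27.6 CPM in day 7 replicate 3, apart from the other 3 mice of that day. The gap to its nearest neighbour was 0.853 of the group's range, above Dixon's critical value for 4 samples. It was the 1 such value among the 30 groups of 4 looked at, where chance flags about 1 in 20.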

How the results depend on the processing

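The number of members called higher was 2 at day 1, and 4 with DESeq2, 1 with the replicate block, 4 without day 3 replicates 1 and 2 (chosen after seeing the data) and 0 to 3 with 1 sample left out. At day 3 it was 4, and 2 without day 3 replicates 1 and 2 and 2 to 6 with 1 sample left out. At day 7 it was 5, and 4 to 7 under every alternative run. Without day 3 replicates 1 and 2, 1079 of all genes were called higher at day 1 and 1196 at day 7. With all 14 samples these were 644 and 582. Day 3 against day 1 gave 1, and 2 with DESeq2, 3 with limma-voom, 0 with only the 2 groups compared, 0 without day 3 replicates 1 and 2, and 0 to 2 with 1 sample left out. Day 7 against day 3 gave 0, and 2 with DESeq2, 1 with limma-voom, 1 without day 3 replicates 1 and 2, and 0 to 1 with 1 sample left out. Fits with 1 day 1 mouse assume that it varies like the other groups. Of 966 alternative values of single genes, 868 kept their direction and side of the threshold, 30 lost their call, 35 gained one and 33 changed sign. With library size alone as the scaling, 619 genes were called higher and 94 lower at day 7 (582 and 264 with TMM), and 1207 and 401 at day 3 (1229 and 686). The cause of these shifts was not tested.

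The replicate numbers do not pair the mice: over 18 same-number pairs, correlations of deviations ran from -0.232 to 0.096 and 0 exceeded 0.1. With the replicate block the members called were 1, 3, 4, 1 and 0 in the order above, and Lgals3 at day 1, Spp1 at day 3 and Itgax at day 7 lost their calls, with adjusted p = 0.122, 0.0691 and 0.0529 (edgeR). Lgals3 at day 1 was also lost with only the 2 groups compared (adjusted p = 0.0635), as was Trem2 between days 1 and 3 (0.0915).

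The sign changes were of values that did not pass the test as reported. Dcstamp at day 1 was at -0.40 with limma-voom, -0.32 with the block, and -0.04, -0.18 and -2.62 without healthy replicate 1, healthy replicate 4 and day 1 replicate 1. With 1 sample left out, Dcstamp at day 1 ran up to 1.40, Ms4a7 at day 1 from -0.22 to 0.77, and between days 1 and 3 Mmp12 from -1.70 to 0.87, Itgax from -0.73 to 0.48 and Cd9 from -0.44 to 0.35. Without day 1 replicate 1, Ms4a7 was at -0.22, Mmp12 at 0.87 and Itgax at 0.48. Without day 3 replicates 1 and 2, the day 3 difference was -0.00061 for Cd9 and -2.07 for Dcstamp, that from day 1 was -2.01 and -2.32, and Lgals3 and Cd9 between days 3 and 7 were at 0.57 and 1.76, of which both Cd9 values passed (edgeR, adjusted p = 0.017 and 0.0349). Cd9 between days 1 and 3 was at -0.04 without the filter. Between days 3 and 7, Trem2 was at -0.18 and Ms4a7 at -0.32 with limma-voom, and Ms4a7 at -0.02 with only the 2 groups. With 1 sample left out, Ms4a7 ran from -0.17 to 0.49, Lgals3 from -0.56 to 0.09 and Cd9 from -0.66 to 0.19.

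Counts over the related lists moved more. Over all 26626 genes, limma-voom called 4226 higher and 3039 lower at day 3, and 3597 and 3450 at day 7. DESeq2 called 2346 and 1412 at day 3, and 1717 and 1005 at day 7. Further lipid-associated macrophage genes called higher at day 3 (11) were 6 without the filter, 18 with limma-voom, 6 with only the 2 groups, 7 with the block, 6 without day 3 replicates 1 and 2 and 6 to 11 with 1 sample left out, and those called lower (2) were 1 with library size alone, only the 2 groups or the block and 0 to 3 with 1 left out. At day 7 the higher count (7) was 4 to 7 with 1 left out, and the lower count (1) was 0 with library size alone or the block, 2 with DESeq2, limma-voom or only the 2 groups, and 0 to 2 with 1 left out. Osteoclast genes called higher at day 3 (2) were 1 without day 3 replicates 1 and 2 and 2 to 3 with 1 left out, and those called lower (1) were 0 with library size alone, only the 2 groups, the block or without those replicates, 3 with limma-voom and 0 to 2 with 1 left out. At day 7 the higher count (2) was 1 without the filter or with the block, 4 with at least 1 CPM in 2 samples, 5 with DESeq2, 6 with limma-voom and 1 to 4 with 1 left out, and the lower count (0) was 1 with DESeq2, 2 with limma-voom and 0 to 1 with 1 left out. MiT/TFE genes called lower were 2 with DESeq2, 3 with limma-voom and 1 to 2 with 1 left out at day 3 (1), and 2, 2 and 0 to 1 at day 7 (0). Trem2 partners called higher at day 3 (3) were 5 with the 1 CPM filter or DESeq2, 6 with limma-voom, 1 with only the 2 groups or the block, 0 without day 3 replicates 1 and 2 and 1 to 5 with 1 left out, and those called lower (1) were 2 without the filter, with the 1 CPM filter, DESeq2 or limma-voom, 0 without those replicates and 0 to 2 with 1 left out. At day 7 the higher count (0) was 1 with relative log size factors, library size alone or the 1 CPM filter, 3 with DESeq2 or only the 2 groups, 4 with limma-voom or without those replicates and 0 to 1 with 1 left out. Ligands and receptors called higher at day 3 (6) were 3 without the filter or with only the 2 groups and 3 to 5 with 1 left out, and those called lower (2) were 0 with library size alone, the block or without those replicates, 1 with only the 2 groups and 0 to 3 with 1 left out. At day 7 the higher count (3) was 6 with DESeq2, 8 with limma-voom, 5 without those replicates and 2 to 5 with 1 left out, and the lower count (1) was 0 with library size alone or the block and 0 to 1 with 1 left out. Proton pump subunits called higher were 3 with limma-voom and 0 to 1 with 1 left out at day 3 (0), and 2 with limma-voom and 1 with only the 2 groups or without those replicates at day 7 (0). Those called lower were 1 with limma-voom, 5 without those replicates and 0 to 1 with 1 left out at day 3 (0), and 0 with library size alone or the block, 3 with DESeq2, 9 with limma-voom, 5 with only the 2 groups, 2 without those replicates and 0 to 3 with 1 left out at day 7 (1).

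Atp6v0d2 and Dcstamp had few or no reads in most healthy mice, so their differences rest on low counts, and day 1 rests on 2 mice.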
